A study of Mus musculus with 1187 samples.

Results

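The genes described here are 9 members of the inflammatory cytokine response as it is read in endothelium. They are the receptors Il1r1, Il6ra and Tnfrsf1a, the NF-kB subunits Nfkb1 and Relb, the NF-kB inhibitors Nfkbia and Tnfaip3, and the secreted acute-phase proteins Lcn2 and Lrg1. They were chosen by name, as 9 of the 46517 genes of the deposited count table, and every one had its own row. These genes and the gene lists used below were chosen with earlier results of these data known. Counts called among them, set beside all genes, are therefore descriptions and not independent support. Interleukin-1 and tumour necrosis factor act through their receptors on a kinase complex that releases NF-kB from its inhibitors, and NF-kB then switches on adhesion molecules, chemokines and its own inhibitors. Interleukin-6 signals through Il6ra and a shared partner to STAT3, which drives acute-phase genes. In brain vessels the venules are known as the main site of leukocyte entry, and endothelial Il1r1 has been linked there to the response to circulating interleukin-1.

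The study sequenced single brain endothelial cells of adult C57BL/6 mice, 3 months old, from Pdgfb ret/ret animals (597 labelled cells) and Pdgfb ret/+ animals (590 labelled cells). The ret allele lacks the retention motif of PDGF-B, and homozygotes have few brain pericytes. All cells of both genotypes carried the reporters Cldn5-GFP and Cspg4-DsRed, were sorted as GFP-positive and dsRed-negative, so that the gate selected on Cldn5 activity and against Cspg4 activity, and were made into Smart-seq2 libraries, 1 well each, without molecular identifiers. The columns of the count table carry a plate and a well but no genotype, no label gives a plate, and no animal is named; ret/ret and ret/+ cells could therefore not be set against each other, and the 1187 cells are described as 1 pooled sample, plate by plate. Plate, animal and genotype cannot be told apart, and no p-value is given.

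Depth per cell ran from 100779 to 584112 reads around a median of 360947, and detected genes from 1402 to 11043 around 4462. There were 300, 290, 285 and 312 cells on plates 521, 522, 523 and 524. Cldn5 was read in 1187 of 1187 cells, and the 8 brain endothelial markers summed to 16647 to 18884 CPM by plate. The markers of neutrophils, another known source of Lcn2 and Lrg1, summed to 3.14 to 6.46 CPM by plate, nearly all of it from Cxcr2, and those of pericytes to 22.6, 24.7, 132 and 81.0 CPM on plates 521 to 524. Median genes per cell were 5118, 4638, 4048 and 4344 on the same plates.

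Of the 9 genes, 7 had an entry in the RefSeq promoter table (GRCm38.p6); Nfkb1 and Relb are named only. The 250 bases before each start were searched on both strands for the kappa-B consensus of 10 bases, the letters that NF-kB dimers are known to recognise, which occurs in 3.90% of the 32851 promoters of the table. Matches stood in Nfkbia (29 bases before the start), Tnfaip3 (125 and 12 bases before its first start) and the second of the starts of Il1r1 (232 bases before it). The sequences shown are those that hold a kappa-B match. Nfkbia and Tnfaip3 are textbook NF-kB targets, and Nfkbia was the gene most like Tnfaip3 across cells. Il1r1 and Lcn2 were each called in both venous contrasts described below. Whether a match has a part in any call or likeness was not tested. Capitals mark the match, and each is written 5′ to 3′ on the strand of its gene. The Nfkbia window is chr12:55492648-55492897, minus strand. The Il1r1 window is chr1:40266336-40266585, plus strand, within the gene. The Tnfaip3 sites are chr10:19015516-19015545 and chr10:19015411-19015440, minus strand.
Nfkbia: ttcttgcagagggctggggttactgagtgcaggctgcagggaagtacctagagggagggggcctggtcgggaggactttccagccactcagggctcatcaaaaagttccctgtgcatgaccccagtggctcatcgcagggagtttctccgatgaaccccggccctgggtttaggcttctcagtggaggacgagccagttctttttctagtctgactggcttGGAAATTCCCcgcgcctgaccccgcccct
Il1r1, second start: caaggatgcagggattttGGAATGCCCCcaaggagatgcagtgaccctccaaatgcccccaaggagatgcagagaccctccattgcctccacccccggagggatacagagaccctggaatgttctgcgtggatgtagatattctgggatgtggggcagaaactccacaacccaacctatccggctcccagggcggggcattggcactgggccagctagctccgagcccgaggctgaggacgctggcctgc
Tnfaip3, farther site: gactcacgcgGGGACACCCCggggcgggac
Tnfaip3, nearer site: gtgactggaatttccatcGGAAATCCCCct
No match stood in the windows of Lcn2, Lrg1, Il6ra, Tnfrsf1a or the first start of Il1r1. Annotated exons cover 197, 55, 250 and 36 of the 250 bases for Lcn2, Lrg1, Il6ra and Tnfrsf1a. They cover 110 bases of the first Tnfaip3 window. The windows of Lcn2 and Tnfrsf1a lie within the annotated genes, so the bases before the outermost annotated start of these genes were not searched. The STAT motif TTCNNNGAA, found in 7.02% of promoters, occurred in 1 member, Tnfrsf1a. A match is a description of letters, and binding was not measured.

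Across all cells the inhibitor Nfkbia far exceeded the other members, the receptor for tumour necrosis factor came next, and the remaining genes were low per base or rested on few cells. Set per kilobase of exon, to put genes roughly side by side, Nfkbia stood at 333 CPM per kb and Tnfrsf1a at 56.8 CPM per kb. The length counts all annotated exons of a gene together, from 1408 bases for Lrg1 to 12061 for Nfkb1, and not 1 transcript. These levels and their order thus also depend on the annotation. Il6ra, Nfkb1, Il1r1, Lcn2, Relb and Tnfaip3 followed at 9.34, 8.74, 7.56, 7.26, 7.07 and 5.48 CPM per kb, and Lrg1 was last at 3.02 CPM per kb. From Il6ra to Relb each gene lay closer to its neighbours than its own plates did to each other, so that order is not firm. The places of Tnfaip3 and Lrg1 were not firm by plate either. On plate 523 Lrg1 stood at 6.11, Tnfaip3 at 5.49, Relb at 5.35 and Lcn2 at 1.60 CPM per kb. The members also differed in how their reads were spread over cells. At a fixed depth of 100000 reads, Nfkbia was read in 92.0% of cells (95% Clopper-Pearson interval 90.3 to 93.5), Tnfrsf1a in 51.0%, Nfkb1 in 42.5% and Il6ra in 36.0%. Il1r1, Relb and Tnfaip3 were read in 15.3%, 14.7% and 12.3% of cells. Lcn2 was read in 7.67% (6.22 to 9.33) and Lrg1 in 0.927% (0.463 to 1.65). Intervals here and below cover counting error only, and the spread over plates is the wider guide.

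**Figure D1:**
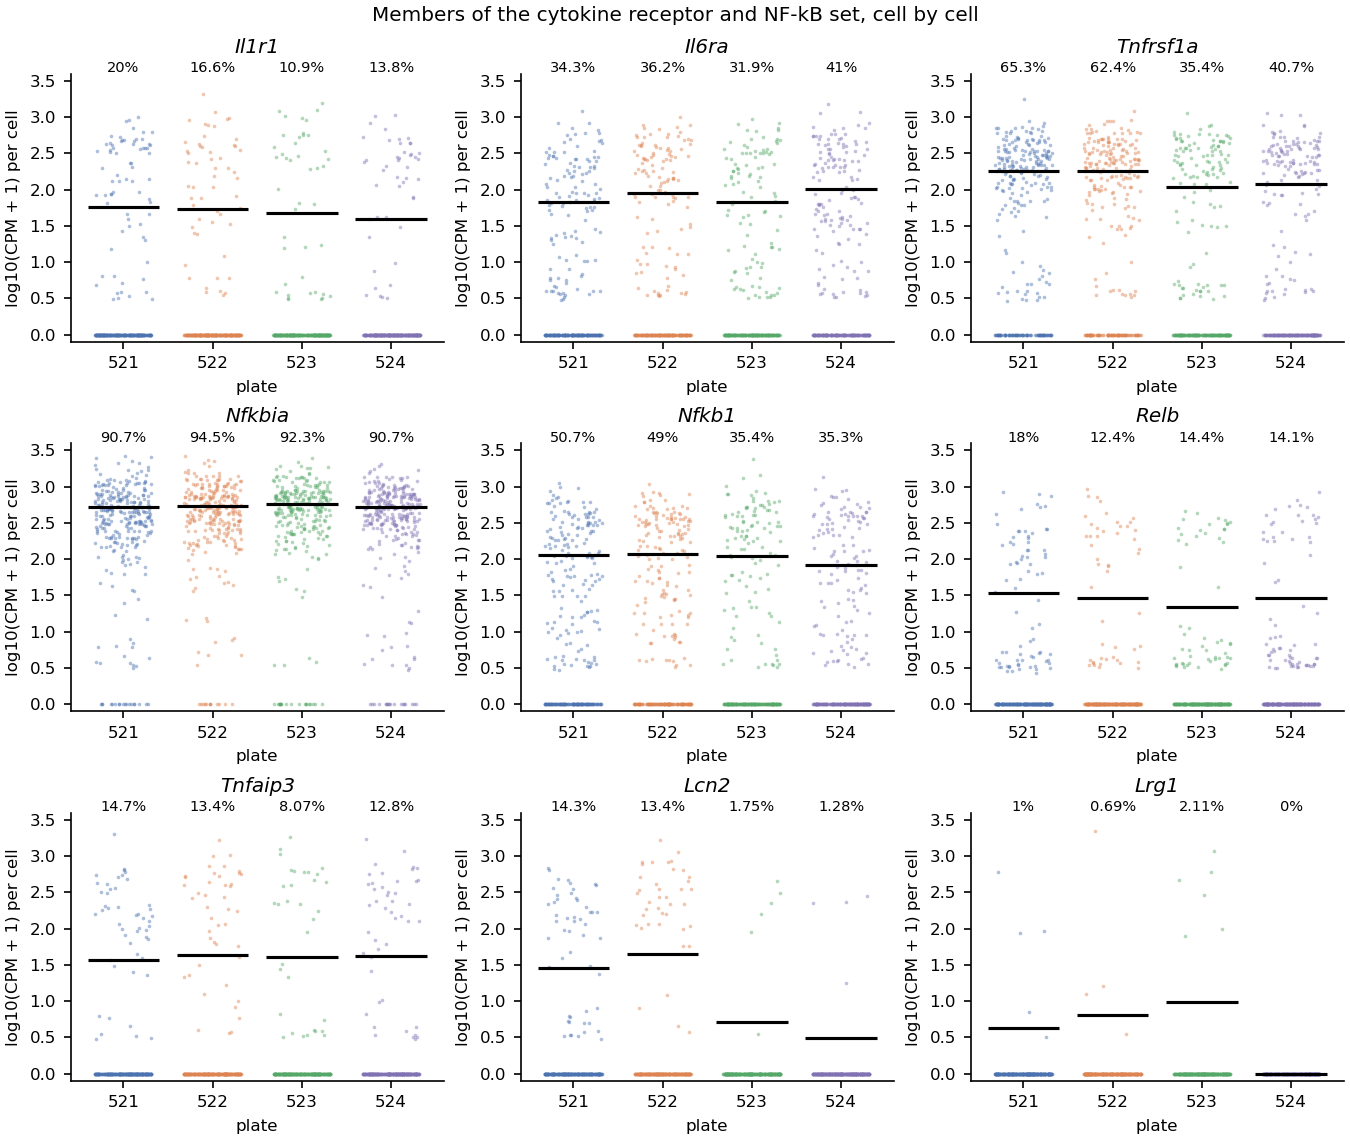
Each point is 1 cell, with log10(CPM + 1) of the gene on the vertical axis and the plate on the horizontal axis, for the 9 members. Black lines are log10(CPM + 1) of counts summed over the plate, and the percentages printed over each plate are the share of cells with a read at 100000 reads per cell. Nfkbia fills nearly every cell on each plate, Lcn2 is read in 14.3% and 13.4% of cells on plates 521 and 522 and in 1.75% and 1.28% on plates 523 and 524, and Lrg1 is absent from plate 524.

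Il1r1, the signalling receptor of interleukin-1 (ENSMUSG00000026072.12, GRCm38 chromosome 1, 40225080 to 40317257, plus strand), had 55.7, 52.5, 45.8 and 38.9 CPM on plates 521 to 524, or 48.2 ± 7.47 CPM (SD over 4 plates). The gene was unread in most cells and high in a minority: the 182 cells with a read at depth came with single-cell values up to 2100 CPM, and the 10 highest cells held 21.9% of its reads. Il6ra, the ligand-binding chain of the interleukin-6 receptor (ENSMUSG00000027947.11, chromosome 3, 89864059 to 89913196, minus strand), had 67.0, 89.7, 66.0 and 100.1 CPM, or 80.7 ± 16.9 CPM. Of its exon bases, 2.80% are shared with Gm42809 on the opposite strand, and reads there could not be told apart. The gene most like Il6ra over cells was RP24-122I22.6, with a mean within-plate Spearman correlation of 0.53 over 1187 cells, and this row was noticed after the values were seen. Its position was not matched, so whether it shares reads with Il6ra is not known. Tnfrsf1a, the widely used receptor for tumour necrosis factor (ENSMUSG00000030341.17, chromosome 6, 125349362 to 125362484, plus strand), had 182.2, 181.1, 108.0 and 118.3 CPM, or 147.4 ± 39.7 CPM. It was read in 65.3% and 62.4% of cells on plates 521 and 522, and in 35.4% and 40.7% on plates 523 and 524, so the plates did not fall evenly. Plates 521 and 522 also had the most genes per cell, and the part of that in the difference was not tested.

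Nfkb1, which encodes the p105 precursor of the p50 subunit (ENSMUSG00000028163.17, chromosome 3, 135584655 to 135691547, minus strand), had 113.8, 117.4, 110.4 and 81.3 CPM on plates 521 to 524, or 105.7 ± 16.5 CPM. Relb, a subunit of the non-canonical pathway (ENSMUSG00000002983.17, chromosome 7, 19606217 to 19629438, minus strand), had 33.0, 27.7, 20.8 and 28.1 CPM, or 27.4 ± 5.01 CPM. Both were within 1.59-fold between plates. Nfkbia, which encodes the inhibitor IkappaB-alpha and is itself induced by NF-kB (ENSMUSG00000021025.8, chromosome 12, 55489410 to 55492647, minus strand), was the steadiest member, with 517.8, 541.7, 566.2 and 520.1 CPM, or 536.4 ± 22.6 CPM. Its median cell held 460.0 CPM and its highest 2679 CPM. Tnfaip3, which encodes the ubiquitin-editing inhibitor A20 (ENSMUSG00000019850.11, chromosome 10, 19000910 to 19015657, minus strand), was nearly as even between plates, with 35.6, 42.4, 39.7 and 40.9 CPM, or 39.6 ± 2.90 CPM. Within plates it was uneven: the 10 highest cells of each plate held 59.9% to 77.3% of its reads. Other members read in few cells were uneven too, with 38.0% to 71.5% for Il1r1 and 56.6% to 61.7% for Relb.

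The secreted proteins were the members that differed most between plates. Lcn2, which encodes the iron-siderophore-binding lipocalin 2 (ENSMUSG00000026822.14, chromosome 2, 32384633 to 32388252, minus strand), had 27.8, 43.6, 4.20 and 2.14 CPM on plates 521 to 524, a 20.4-fold span. It was read at depth in 43, 39, 5 and 4 cells of those plates. On plates 523 and 524 it was thus rare rather than evenly low, since its cells with a read still had medians of 192 and 226 CPM, against 120.5 and 250.1 CPM on plates 521 and 522. Lrg1, which encodes a leucine-rich glycoprotein known to modulate TGF-beta signalling in endothelium (ENSMUSG00000037095.8, chromosome 17, 56119678 to 56122001, minus strand), had 3.25, 5.51 and 8.60 CPM on plates 521 to 523. On plate 524 none of its reads were found (0 of 312 cells, an upper limit of 0.962% of cells). Over 2-fold distances between plates were found for 2 of 9 members, Lcn2 and Lrg1, beside 24.9% of all tested genes. Of the marker lists of other cell types, erythroid markers were higher on the same plates as Lcn2, at 26.1, 19.1, 5.26 and 5.05 CPM, and pericyte markers were lower there, as given above. Neutrophil markers stood at 4.18, 3.14, 4.21 and 6.46 CPM and fibroblast markers at 43.2, 2.30, 37.1 and 8.24 CPM. Their part in the plate values of Lcn2 was not tested. Other listed genes, picked after their values were seen, differed between these plates too. On plates 521 to 524 Vcam1 had 397, 252, 69.4 and 69.4 CPM and Csf1 191, 134, 33.7 and 21.7 CPM. Lbp had 58.7, 41.6, 13.5 and 13.2 CPM. Fas went the other way, at 62.2, 55.4, 218 and 192 CPM, and Sod2 had 112, 86.1, 101 and 106 CPM. Lower values on plates 523 and 524 were thus not particular to Lcn2.

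Of the other receptors in a list of 26 cytokine receptors, 18 exceeded 20 CPM, led by Il10rb, the shared chain of interleukin-10 family receptors, at 464.7 CPM. The interferon receptor chains Ifnar1 and Ifnar2 stood at 427.4 and 365.9 CPM. The signalling partners of the member receptors, picked after their values were seen, were far apart: Il6st, the shared gp130 chain, had 347.4 CPM and was read in 70.9% of cells, whereas Il1rap, the co-receptor of Il1r1, had 16.1 CPM and was read in 8.26%. Among 28 other genes of the NF-kB pathway 20 exceeded 20 CPM, led by Rela, the main activating subunit, at 178.6 CPM, and by the kinases Ikbkb and Chuk at 122.6 and 115.0 CPM. The ligand gene Il6, an NF-kB target, was at 0.00239 CPM.

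Vessel zone was read from markers that hold no member. Each cell was scored by the mean log2(CPM + 1) of 8 venous, 11 arterial, 8 sprouting and 9 capillary markers, and it was called marker-high for a zone if it lay in the top 25% of its plate for that zone alone. This gave 153 venous-marker-high, 199 arterial-marker-high, 121 sprouting-marker-high and 140 capillary-marker-high cells, and 574 cells with no or several zones. These are ranges of a score, not cell types, and 49, 40, 94 and 35 of the cells lay within 0.1 of their cut. In venous-marker-high cells the median summed level was 2399.7 CPM for venous, 2.70 CPM for arterial, 0 for sprouting and 5478 CPM for capillary markers. In capillary-marker-high cells the medians were 703 CPM for venous, 2.38 CPM for arterial, 0 for sprouting and 10930 CPM for capillary markers, so capillary genes were shared by all. The sprouting class rested on plates 521 and 522: its median sprouting markers were 2445, 1265, 113 and 18.2 CPM on plates 521 to 524. Median reads were 362833, 373736, 347200 and 378942 and median genes 4594, 4696, 4511 and 4287.5 in the venous, arterial, sprouting and capillary classes. A gene was called where the pooled log2 ratio, with a prior of 1 CPM, passed 2-fold and all 4 plates had its sign.

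Il1r1 was a gene of venous-marker-high cells. It had 109.2, 232.3, 141.9 and 104.1 CPM in venous-marker-high cells on plates 521 to 524, against 23.8, 6.12, 11.0 and 5.46 CPM in arterial-marker-high cells. Capillary-marker-high cells had 49.1, 17.5, 0.446 and 24.8 CPM, and sprouting-marker-high cells 29.3, 31.6, 5.89 and 1.58 CPM. The lowest venous plate was above the highest plate of each other class. The pooled log2 ratio of venous-marker-high over arterial-marker-high cells was 3.49 (2.15 to 5.03 by plate) and over capillary-marker-high cells 2.58 (1.14 to 6.63). More cells carried the transcript: 34.6% (27.1 to 42.7) of venous-marker-high cells had a read at depth, against 6.53% (3.52 to 10.9) of arterial-marker-high and 7.86% (3.99 to 13.6) of capillary-marker-high cells. No single cell made the difference, as the highest held 10.7% of the reads of the venous class.

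Lcn2 followed the same zone with much larger steps between plates. Venous-marker-high cells had 82.6, 172.1, 20.2 and 4.50 CPM on plates 521 to 524, against 6.36, 5.61, 0 and 0 CPM in arterial-marker-high cells and 40.2, 24.8, 0 and 0 CPM in capillary-marker-high cells. On each plate the venous class was highest, but on plate 524 its value came from 1 cell of 38. The pooled log2 ratio was 4.02 over arterial-marker-high cells (2.46 to 4.71 by plate) and 1.99 over capillary-marker-high cells (1.02 to 4.41). Shares of cells with a read were 17.0% (11.4 to 23.9) in the venous class, 2.01% (0.550 to 5.07) in the arterial class and 5.71% (2.50 to 10.9) in the capillary class. Both calls were lost when the top 33% of each plate was taken and when cells were ranked over all plates together, and the cause was not tested. Markers of other cell types differed between the classes too. In the venous, arterial and capillary classes astrocyte markers summed to 128, 263 and 315 CPM, fibroblast markers to 3.10, 56.7 and 3.40 CPM and erythroid markers to 0.789, 2.55 and 28.5 CPM. Pericyte markers summed to 38.9, 50.7 and 70.2 CPM and neutrophil markers to 4.92, 3.95 and 2.91 CPM in the same classes. Their part in the zone calls of Il1r1, Lcn2 and Relb was not tested.

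Lrg1 was confined to so few cells that counts are given in place of ratios. The venous class held 1222 Lrg1 reads in 7 of 153 cells, against 2 reads in 2 of 199 arterial-marker-high cells. The sprouting and capillary classes had 0 reads, which allows up to 0.0721 and 0.0583 CPM. Of the venous reads 43.7% came from a single cell on plate 522, and plate 524 had none, which is why no call was made.

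**Figure D2:**
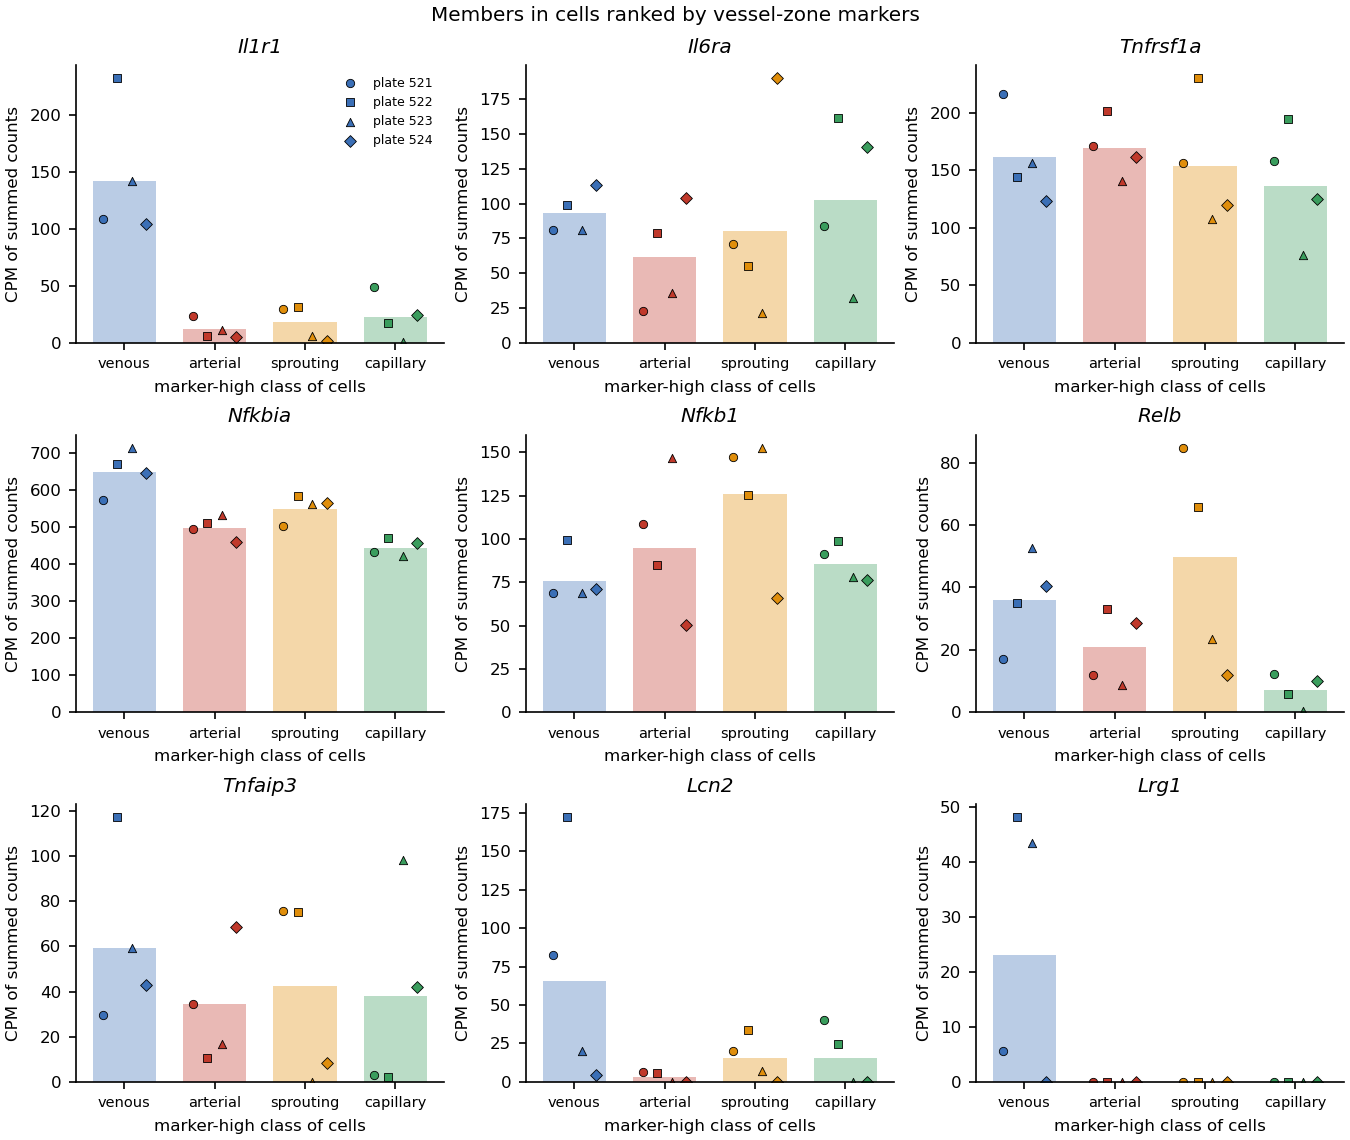
Bars are CPM of counts summed over the marker-high class, points the same value on each plate, for the 9 members; classes run from venous through arterial and sprouting to capillary. Il1r1 stands at 142.4 CPM in the venous class and at 11.8 to 22.9 CPM in the other classes, Lcn2 at 65.4 CPM against 3.08 to 15.7 CPM, and Nfkbia is near level at 445 to 649 CPM.

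Relb was lowest in capillary-marker-high cells on the pooled counts. It had 17.2, 35.0, 52.6 and 40.6 CPM in venous-marker-high cells of plates 521 to 524, and 84.7, 65.7, 23.6 and 12.0 CPM in sprouting-marker-high cells. Capillary-marker-high cells had 12.3, 5.84, 0.372 and 10.1 CPM. The log2 ratio over the capillary class was 2.19 for the venous class (0.45 to 5.29 by plate) and 2.63 for the sprouting class (0.23 to 4.16), and shares of cells with a read were 19.6%, 21.5% and 5.71% in the venous, sprouting and capillary classes. Arterial-marker-high cells had 11.9, 33.0, 8.62 and 28.5 CPM, or 20.9 CPM pooled, and on plate 521 they were no higher than the capillary class, so no call was made for them. Microglial markers summed to 213 CPM in the sprouting class and 82.4 CPM in the capillary class, and smooth muscle markers to 23.0 and 5.07 CPM; their part was not tested. Within the capillary class Relb was read at depth in 8 of 140 cells, so its low level rests on few cells. The call for the sprouting class was lost under 3 of 15 alternatives.

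None of the other NF-kB genes and receptors was called between zones. Nfkbia had 574, 671, 714 and 646 CPM in venous-marker-high cells, against 494, 510, 533 and 459.6 CPM in arterial-marker-high cells and 433, 469.8, 422 and 458 CPM in capillary-marker-high cells. On all 4 plates the venous class was highest, by a log2 ratio of 0.39 over arterial-marker-high and 0.54 over capillary-marker-high cells, which is below the 2-fold limit. Tnfaip3 was erratic, with log2 ratios of venous over capillary from -0.72 to 5.30 by plate, and in the sprouting class 46.5% of its reads came from 1 cell. Nfkb1 had 76.0, 95.1, 126 and 85.5 CPM in the venous, arterial, sprouting and capillary classes, with both signs among the plates in each contrast. Il6ra had 81.0, 99.4, 80.9 and 113 CPM in venous-marker-high cells on plates 521 to 524, against 22.7, 79.1, 36.1 and 104 CPM in arterial-marker-high cells. It was thus higher in the venous class on 4 of 4 plates, by a pooled log2 ratio of 0.59 (0.12 to 1.79), which is below the 2-fold limit; it was called when cells were ranked over all plates together. Capillary-marker-high cells had 84.2, 161, 32.5 and 141 CPM of Il6ra, on both sides of the venous values. Tnfrsf1a had 162, 169.5, 153 and 136 CPM in the venous, arterial, sprouting and capillary classes. Tnfrsf1a was on all 4 plates higher in arterial-marker-high than in capillary-marker-high cells, by a log2 ratio of 0.32, and its share of cells with a read was 59.3% in the arterial class and 42.9% in the capillary class.

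Against the arterial class, 2 of 9 members were called higher in venous-marker-high cells (Il1r1 and Lcn2), beside 3.00% of 12082 genes, and 0 were called lower, beside 4.50%. Against the capillary class, 3 of 9 were called higher in venous-marker-high cells (Il1r1, Relb and Lcn2), beside 3.27% of 11886 genes, and 0 lower, beside 1.97%. In either direction 7.50% of genes were called in the first of these contrasts and 5.24% in the second. Arterial-marker-high over capillary-marker-high cells gave 0 of 8 members measured, beside 8.19% of 12030 genes in either direction, 5.68% higher and 2.51% lower. Sprouting-marker-high over capillary-marker-high cells gave 1 of 8 higher (Relb) and 0 lower, beside 2.69% of 11963 genes called higher, 2.43% lower and 5.12% in either direction. The counts of the arterial and sprouting contrasts moved with the settings, and without plate 523 the arterial contrast called Tnfaip3 higher and Il1r1 lower.

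The zone markers were also taken singly; they are the genes that made the score, so this is another view of the same contrast. At 100000 reads, the share of cells with a read of Il1r1 was higher in cells with each of the 8 venous markers than in cells without it, on every plate compared for 7 of them. It was 41.9% with and 10.4% without Nr2f2, the factor that specifies venous fate, and 52.2% with and 12.3% without the apelin receptor Aplnr. Among the arterial markers the share of Il1r1 was 7.50% with and 17.8% without Hey1, a Notch target, and 8.00% with and 17.8% without the semaphorin Sema3g, lower on 4 of 4 plates for both, and with the remaining 9 it was higher for 5. Lcn2 was read in 22.0% of cells with and 5.00% without Nr2f2. It was also read in 21.5% of cells with and 4.79% without Apln, a sprouting marker, and was higher with it on 2 of 4 plates. Lrg1 was read in 3.76% of cells with and 0.400% without Nr2f2. Tnfrsf1a differed from these in shares pooled over plates. Its share was higher with each of 11 arterial, 8 venous and 8 sprouting markers, but with 1 of 9 capillary markers. With the arterial kinase gene Bmx it was 66.0%, and without Bmx 46.1%. By plate this was less even: on all 4 plates it was higher for 7 arterial, 4 venous, 2 sprouting and 1 capillary markers. For Mfsd2a, a capillary marker, the pooled share was 48.2% with and 55.9% without, yet higher with it on 3 of 4 plates.

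**Figure D3:**
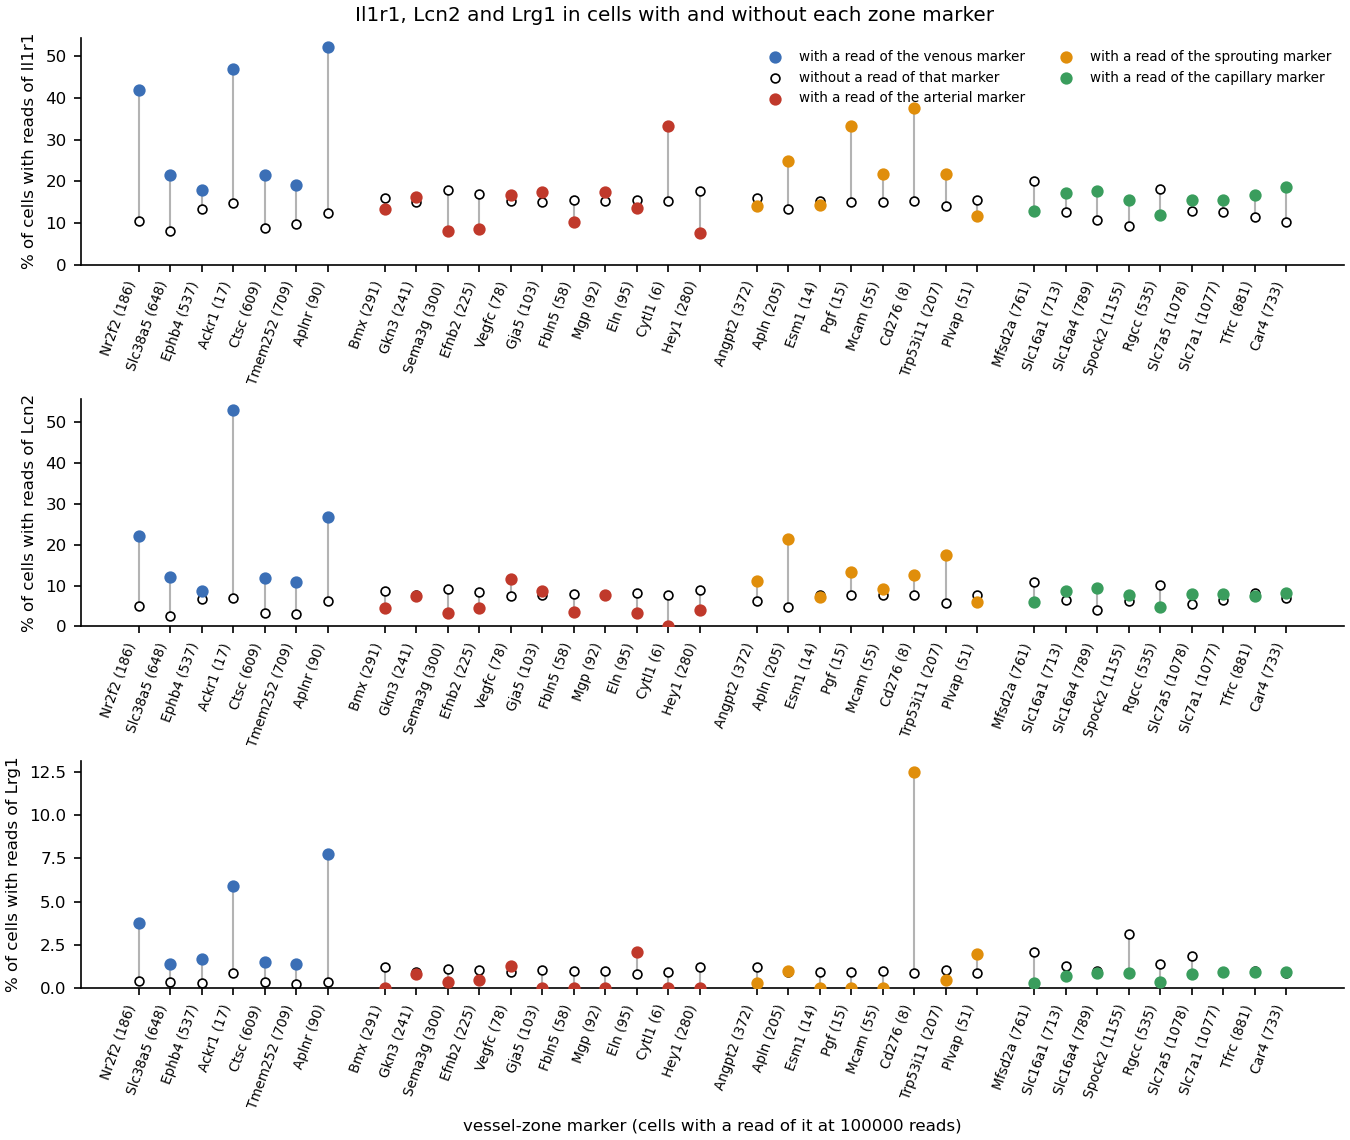
For each vessel-zone marker plotted, filled points give the percentage of cells with reads of Il1r1 (top), Lcn2 (middle) or Lrg1 (bottom) among cells with a read of the marker, and open points the same among cells without; numbers in brackets are cells with the marker at 100000 reads. The 7 venous markers plotted lie above their open points in each panel; points over markers with few cells, such as Cd276 with 8 and Cytl1 with 6, are imprecise.

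Il1r1, Lcn2 and Lrg1 were read in the same cells more often than the products of their shares give over all cells. At depth 38 cells had reads of both Il1r1 and Lcn2, where the product of the shares gives 13.95, and Lcn2 was read in 20.9% of cells with and 5.27% of cells without Il1r1. The odds ratio was 3.25, 4.76, 13.5 and 6.51 on plates 521 to 524, and 4.25 by the Mantel-Haenszel formula over plates. Within the venous class alone it was 3.56 over plates, with both genes read in 16 of 153 cells. In the other classes the pair was rare: both were read in 0 of 199 arterial-marker-high cells, in 1 of 121 sprouting-marker-high cells (odds ratio 0.84, pooled over plates) and in 2 of 140 capillary-marker-high cells (odds ratio 4.56). The products of the shares there give 0.261, 1.16 and 0.629 cells, so these counts say little either way. Cells with Il1r1 had more genes with a read, at a median of 5104.5 against 4403 in cells without, at 353963 and 362833 reads; with plates split into 3 bins of genes per cell the odds ratio was 3.67. Among the other pairs of members without Lrg1 the odds ratio over plates ran from 0.83 (Nfkbia and Lcn2) to 3.34 (Il6ra and Nfkbia).

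Of the 11 cells with Lrg1 at depth 10 had a read of Il1r1, against 14.6% of cells without Lrg1, and the odds ratio over plates was 44.5. It was 16.9 without plate 523, which held 6 of these cells. Lcn2 was read in 5 of the 11, against 7.31% of the others, for an odds ratio of 10.3. That value rests on single plates: it was 220.7 without plate 521, where 0 of 3 Lrg1 cells had Lcn2, 6.46 without plate 522 and 4.03 without plate 523, and with cells holding a neutrophil marker read left out it was 18.8. All 3 genes were read at depth in 5 cells, 2 on plate 522 and 3 on plate 523, and 4 of them were venous-marker-high.

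Taking every read, 15 cells had Lrg1, of which 12 had Il1r1, 7 had Lcn2 and 12 lay in the venous top 25% of their plate; 2 had a single Lrg1 read each. All had the endothelial marker Cldn5, as did every cell on the plates, at 2560 to 4959 CPM. Ptprc, the pan-leukocyte marker CD45, was at 0 in all 15. It was read at depth in only 1.43% of all cells, so neither marker sets these cells apart. Of the 15, 7 had a read of a neutrophil marker, as did 50.0% of all cells. The one with the most Lrg1 had 8 such reads and 4.09 CPM of the microglial marker Cx3cr1, which was at 2.74 CPM in another. The cell with the most Lrg1, on plate 522, had 2186 CPM of Lrg1, 1126 CPM of Lcn2, 1163 CPM of Il1r1, 1662 CPM of Tnfaip3, 937 CPM of Relb and 2329 CPM of Nfkbia, with 3549 CPM of the adhesion molecule Icam1. The next, on plate 523, had 1179 CPM of Lrg1, 457 CPM of Lcn2, 311 CPM of Il1r1 and 1940 CPM of Nfkbia, but 0 of Tnfaip3 and Relb. The one with the third-highest level, on plate 521, had 611 CPM of Lrg1 and 0 of Il1r1, Lcn2, Tnfaip3, Relb and Icam1, so the pattern was not uniform.

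**Figure D4:**
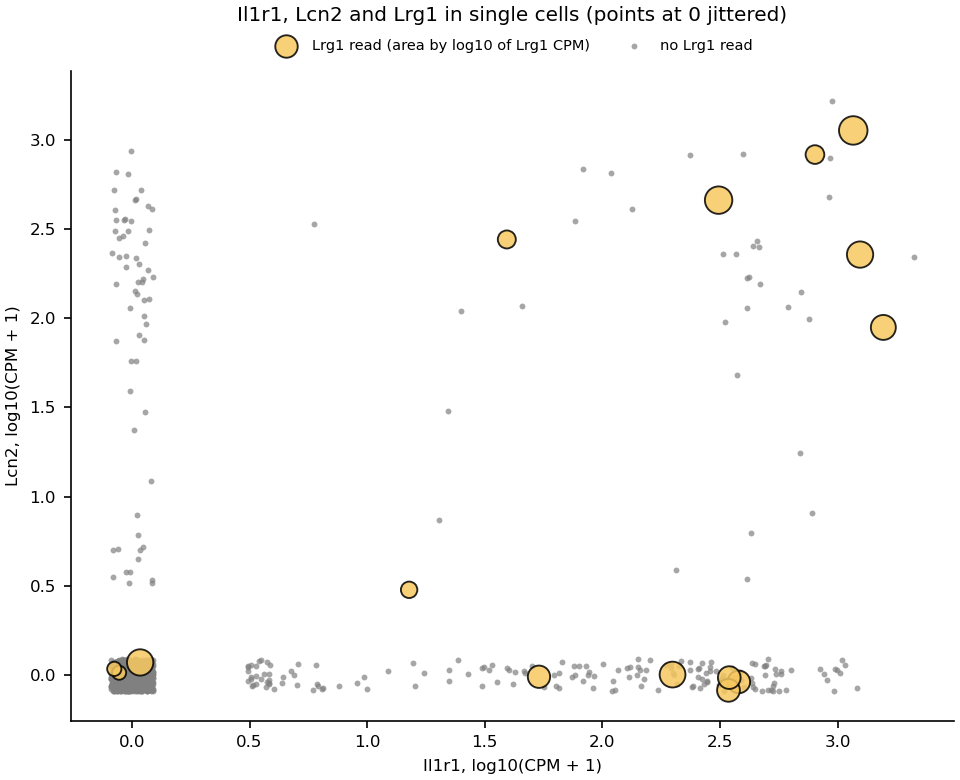
Each point is 1 of 1187 cells, with log10(CPM + 1) of Il1r1 on the horizontal and of Lcn2 on the vertical axis, and values at 0 jittered. Large yellow points are the 15 cells with a read of Lrg1, area growing with its level; 12 of them lie to the right of 0 for Il1r1, and 7 also above 0 for Lcn2.

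Neutrophil markers were at a like level in cells with and without Lcn2. Of 91 cells with Lcn2 at depth, 24.2% had a read of a neutrophil marker, against 25.7% of the 1096 others, and the 8 markers summed to 3.99 and 4.58 CPM. In the cells with Lcn2, 7 of the 8 markers were at 0, and the remaining one was Cxcr2. Each of those 7 was read at depth in at most 0.421% of all cells, so their absence from 91 cells says little. Other lists differed more between cells with and without Lcn2. Erythroid markers summed to 55.0 CPM in cells with and 10.5 CPM in cells without, and were read in 11.0% and 8.30% of them; on plates 521 and 522 alone they summed to 61.2 and 16.7 CPM. Pericyte markers summed to 24.1 and 68.4 CPM, fibroblast markers to 1.79 and 24.7 CPM, choroid markers to 6.03 and 21.2 CPM and smooth muscle markers to 5.94 and 12.6 CPM in cells with and without Lcn2. Leukocyte markers summed to 4.85 and 7.55 CPM, neuron markers to 9.51 and 13.9 CPM, microglial markers to 117 and 115 CPM, astrocyte markers to 210.2 and 231 CPM and oligodendrocyte markers to 57.7 and 50.6 CPM. The part of these cells or their RNA in the Lcn2 values was not tested.

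By the likeness of genes over cells (mean within-plate Spearman correlation of CPM, among 12558 genes read in at least 5% of cells), venous markers were among the leading genes for Il1r1 and Lcn2. Among the 5 most like Il1r1 were Nr2f2 at 0.31, Vwf at 0.31, Gm16559 at 0.29 and Adh1 at 0.28. Gm16559 is annotated antisense to Adh1 over part of its length, and reads there could not be told apart. Among those most like Lcn2 were Ang at 0.22, Nr2f2 at 0.21, RP24-245I16.3 at 0.20 and Wnt5a at 0.20. For Lrg1, over the 3 plates where it was read, they included Ptgs2 at 0.30, Lcn2 at 0.24, Pla2g4a at 0.24 and Aplnr at 0.23, and the value of Lcn2 ran from -0.003 to 0.50 by plate. All are weak correlations among cells that share plates and depth. Nfkbia, looked at after its values were seen, was most like the immediate early genes Junb, Ier3 and Fos, at 0.27, 0.27 and 0.26, and its correlation with the mean of 14 immediate early genes was 0.28 (0.22 to 0.42 by plate). Tnfaip3 was most like Nfkbia, at 0.20.

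Part of the listed NF-kB target genes were called higher in the zone that carried Il1r1 and Lcn2. Of 21 listed targets, 12 reached 5 CPM in venous-marker-high or capillary-marker-high cells. Of these, 8 were called higher in the venous class and 0 lower, beside 3.27% and 1.97% of all genes. Their median log2 ratio was 1.77, beside 0.03 over all genes. The chemokine gene Cxcl1 had 62.8 CPM in venous-marker-high and 6.00 CPM in capillary-marker-high cells (log2 3.19). Ptgs2, the inducible prostaglandin synthase, had 76.7 and 7.93 CPM (log2 3.12), Ch25h, the cholesterol 25-hydroxylase, 39.4 and 2.12 CPM (log2 3.70), and Cxcl10 48.8 and 0.0194 CPM, a ratio that rests on the prior. The adhesion molecule Vcam1 had 394 and 48.5 CPM (log2 3.00). Ch25h and Cxcl10 reached 5 CPM only in the venous class, so the count and the median lean on that filter. Over all cells Cxcl10, Ch25h, Ptgs2 and Cxcl1 were read at depth in 2.275%, 3.96%, 6.91% and 8.34%. Over arterial-marker-high cells 3 of 13 measured targets were called higher in the venous class: Icam1 at 263 and 65.3 CPM (log2 1.99), the myeloid growth factor Csf1 at 156 and 50.6 CPM (log2 1.60) and Traf1 at 16.8 and 2.43 CPM (log2 2.37), with a median log2 ratio of 0.59. In arterial-marker-high over capillary-marker-high cells 4 of 13 were called higher, among them Vcam1 (log2 2.60) and Ptgs2 (log2 2.11), with a median log2 ratio of 0.91. In sprouting-marker-high over capillary-marker-high cells 0 of 11 were called, with a median of 0.98. Over all genes 3.00%, 5.68% and 2.69% were called higher in these last 3 contrasts. All genes had medians of -0.00, 0.03 and 0.03 in the last 3 contrasts, so the targets had higher medians in each of the venous, arterial and sprouting classes over the capillary class.

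From 1 to 3 genes of the signalling machinery were called in each zone contrast. In venous-marker-high over capillary-marker-high cells 1 of 28 core NF-kB genes was called, the atypical inhibitor Nfkbiz (log2 1.54), and in venous-marker-high over arterial-marker-high cells 1, Otulin, a deubiquitinase, was called lower (log2 -1.19). In arterial-marker-high over capillary-marker-high cells 2 of 28 were called higher, the ubiquitin ligase gene Birc3 (log2 1.72) and Nfkbiz (log2 1.05), and 1 lower, the inhibitor Nfkbie (log2 -1.51). In sprouting-marker-high over capillary-marker-high cells 1 of 27 was called higher, Birc3 (log2 1.39), and 2 lower, Otulin (log2 -2.69) and Nfkbie (log2 -1.15). Over all genes the shares called in these 4 contrasts, in either direction, were 5.24%, 7.50%, 8.19% and 5.12%. Of the listed cytokine receptors, which leave out the member receptors such as Il1r1, none of the 23 measured was called in any zone contrast. Immediate early genes, which dissociation is known to raise, were partly higher too. In venous-marker-high over capillary-marker-high cells 4 of 14 were called higher (Atf3, Fosb, Zfp36 and Egr1, log2 1.65, 1.52, 1.09 and 1.06), beside 3.27% of all genes. In arterial-marker-high over capillary-marker-high cells 5 of 14 were, beside 5.68%. The part of immediate early genes in the higher Nfkbia was not tested. In the STAT3 and acute-phase list Lbp, the lipopolysaccharide-binding protein, had 81.0 CPM in venous-marker-high cells, against 15.1 CPM in arterial-marker-high and 11.9 CPM in capillary-marker-high cells (log2 2.35 and 2.67). Cebpd, a transcription factor of the acute phase, had 93.8 and 40.8 CPM in the venous and arterial classes (log2 1.18). Socs3, a feedback inhibitor induced by STAT3, was called higher in the arterial than in the capillary class, at 88.1 and 31.6 CPM (log2 1.45). Of 8 listed genes through which Lrg1 is known to act, 0 were called between the venous class and the arterial or capillary class. Over all genes 7.50% and 5.24% were called in these contrasts in either direction, so 0 of 8 is near that share. In sprouting-marker-high over capillary-marker-high cells 1 of the 8 was called higher, beside 2.69% of all genes. Among the 8, Eng and Acvrl1 had 1881 and 788.8 CPM over all cells.

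The comparison was also made by the members themselves, a contrast added after the values were seen. In the 182 cells with a read of Il1r1 over the 1005 without, with ratios averaged over plates, Lcn2 was the only other member called, at 56.0 and 12.5 CPM (log2 1.88, 0.99 to 3.10 by plate), beside 0.963% of 11842 genes called higher, 2.89% lower and 3.85% in either direction. For Lcn2 this is the co-occurrence with Il1r1 described above, given as levels, and not a separate result. The list of targets had 6 of 13 called higher, led by Vcam1 at 503 and 143 CPM (log2 2.21), Ptgs2 (log2 2.01), Ch25h (log2 1.77) and Traf1 (log2 1.39). Lbp had 99.4 and 19.8 CPM (log2 2.69). Nfkbia had 581 CPM in cells with Il1r1 and 528 CPM in cells without, and Tnfaip3 46.5 and 38.3 CPM, with 2 of 4 plates higher for each. Of the cells with Il1r1, 29.1% were venous-marker-high, against 9.95% of those without, so zone and Il1r1 move together here. Fibroblast markers summed to 2.64 and 26.6 CPM, smooth muscle markers to 6.33 and 13.1 CPM, astrocyte markers to 169.5 and 240.1 CPM and neutrophil markers to 7.11 and 4.08 CPM in cells with and without Il1r1, and their part was not tested.

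For Lcn2 the contrast could be made on plates 521 and 522, the only plates with at least 10 such cells, between 82 cells with and 508 without a read. Il1r1 had 174 CPM in cells with Lcn2 and 35.3 CPM in cells without (log2 1.62 and 2.99 on the 2 plates), which is the same association again. Tnfaip3 had 74.9 and 33.1 CPM (log2 0.47 and 1.72), and both members were called, beside 3.33% of 11996 genes called higher, 7.40% lower and 10.7% in either direction. Among the targets 6 of 14 were called higher, led by Cxcl10 at 79.7 and 8.46 CPM (log2 2.96), Ch25h at 71.0 and 12.4 CPM (log2 2.41), Vcam1 at 798 and 254 CPM (log2 1.82) and Icam1 at 349.5 and 129.6 CPM (log2 1.46). The list also had 2 called lower, among them Tnfaip2 at 0.355 and 8.16 CPM. In the NF-kB core list Nfkb2, the precursor of p52, had 66.8 and 28.7 CPM (log2 1.20), whereas Nfkb1 had 75.9 and 121.8 CPM, lower on both plates but within the 2-fold limit. Cells with Lcn2 held 5204 genes in the median against 4792.5 in cells without, at 356251 and 360989 reads, and 26.8% against 10.2% were venous-marker-high; the part of either in these ratios was not tested.

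**Figure D5:**
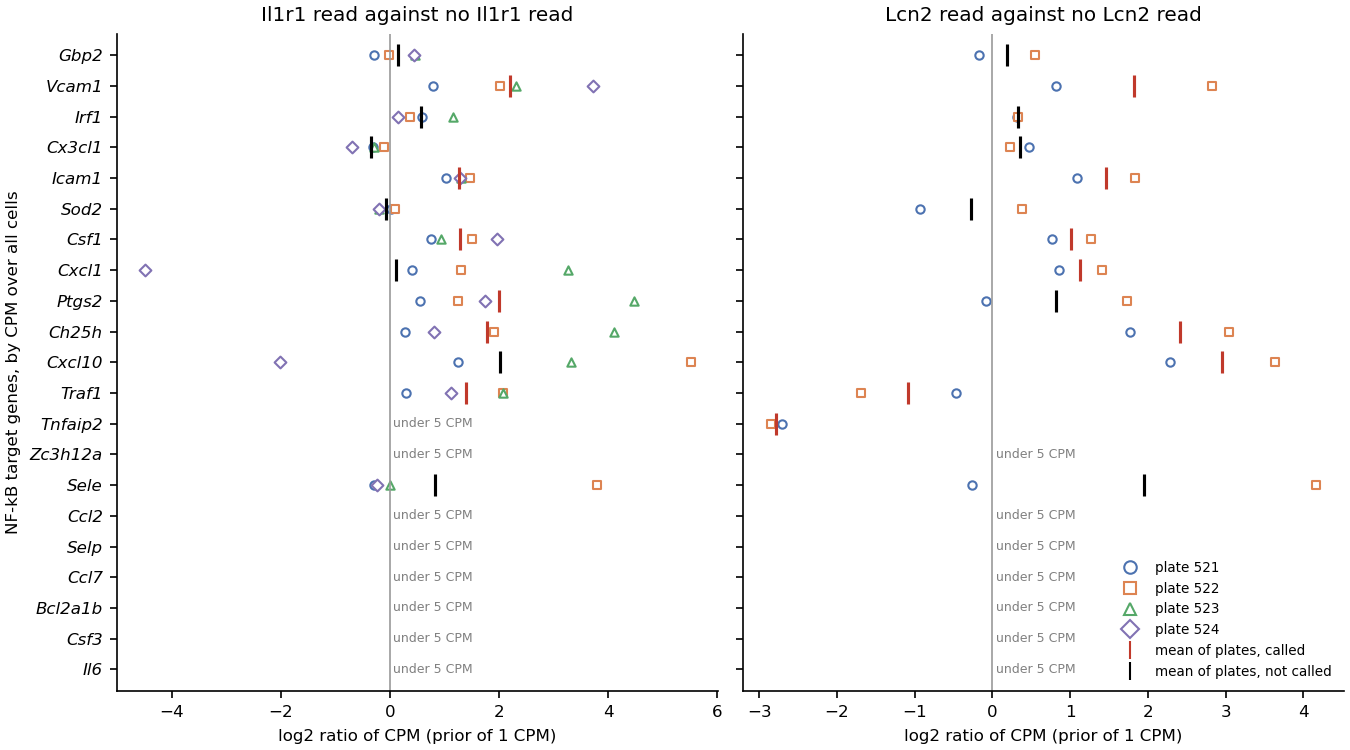
Log2 ratio of CPM for 21 NF-kB target genes, ordered by level over all cells, in cells with against cells without a read of Il1r1 (left) and of Lcn2 (right). Open symbols are plates and bars the mean over plates, red where the gene was called; genes under 5 CPM on both sides are marked as such. Icam1, Vcam1, Csf1 and Ch25h lie to the right of 0 on every plate in both panels, and Cxcl1 on plate 524 goes the other way in the left panel.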

How the data were processed

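The authors deposited 1 table of raw counts, whole-number reads per gene for 46517 genes in 1187 cells. Subread 1.4.6-p5 with featureCounts, SAMtools 0.1.18 and TopHat2 2.1.1 are named per the submitters' processing notes, beside GRCm38 and mm10. Whether strand was used in counting was not given in the sources used here. Columns carry a plate and well, the labels neither, so no cell was given a genotype and the planned comparison of Pdgfb ret/ret with Pdgfb ret/+ could not be made. The members and gene lists were chosen with earlier results of these data known.

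Cells with at least 50000 reads and 1000 genes were kept, which removed 0. Counts were summed over cells and scaled to CPM, with exact Poisson intervals. Shares of cells came from thinning each cell to 100000 reads, with Clopper-Pearson intervals at 95%, and a count of 0 was given the limit of 3 counts. Zone contrasts were tested only on genes with at least 5 CPM on either side that are not zone markers. The contrasts by a read of Il1r1 or Lcn2 average the log2 ratios of plates with at least 10 cells on each side. Reads of Smart-seq2 are not independent molecules, cells are not replicates, and no doublet caller was run. The named genes were all members, from each list up to 4 of the largest called genes per contrast and up to 3 further genes by CPM, and the 5 genes most like Il1r1, Lcn2 and Lrg1; exceptions are said to have been chosen after their values were seen. The contrast calculation was tested on simulated data. Python 3.11.15, numpy 2.4.6, pandas 2.3.3, scipy 1.17.1 and matplotlib 3.10.9 were used. Coordinates of genes are from GENCODE M21 on GRCm38 and promoter sequences from RefSeq. Alternatives varied the zone score and its limit, the scaling, the prior, the filters, the depth of thinning and the plates included. 1 of the venous markers, which stayed in the zone score, is not reported here by itself.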

Additional observations from a re-analysis of the deposited data

How the results depend on the processing

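No paired analysis was possible because no column carries a replicate number or a genotype. Under 15 alternatives Il1r1 stayed called in venous-marker-high over arterial-marker-high cells (log2 2.86 to 5.03) and over capillary-marker-high cells (2.17 to 3.71), as did Relb over capillary-marker-high cells (1.57 to 2.78). Lcn2 stayed called in 13 of 15 in both contrasts (3.12 to 6.02 and 1.43 to 3.52), and Relb in sprouting-marker-high over capillary-marker-high cells in 12 of 15 (1.77 to 3.09). Members called in addition in venous-marker-high cells were Relb over arterial without plate 522 or with the top 10%, Il6ra over arterial with ranking over all plates, in place of Lcn2, Tnfaip3 over capillary without plate 523, and Lrg1 over both without plate 524. No log2 ratio of a called member changed sign. With the top 33% of each plate, 1 member was called in place of 2 for venous over arterial, and 2 in place of 1 for sprouting over capillary, where the number of markers read and ranking over all plates gave 0. Arterial over capillary gave 1 by the number of markers read, 1 by the mean of each cell's CPM, 1 without plate 521 and 2 without plate 523, in place of 0. Counts of all called genes rose where a plate was left out, since fewer plates had to share a sign: 906 became 1402 for venous over arterial without plate 521; 623 became 1088, 1143, 1065 and 1163 for venous over capillary without plates 521 to 524; 985 became 1510 and 1518 for arterial over capillary without plates 522 and 524; and 613 became 1195, 1200, 1173 and 1180 for sprouting over capillary without plates 521 to 524, or 232 with ranking over all plates. The odds ratio of Lcn2 and Lrg1 was 220.7 without plate 521 in place of 10.3, and that of Il1r1 and Lrg1 could not be computed without plate 521 or in venous-marker-high cells alone, where each Lrg1 cell had Il1r1. The settings without the highest cell of each class and within bins of genes per cell, and the contrasts by a read of Il1r1 or Lcn2, were chosen after seeing the data. The causes of these shifts, other than the number of plates, were not tested. At 100000 reads Lrg1 rests on 11 of its 15 cells, and Relb in the capillary class on 8 of 18.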
